A study of Saccharomyces cerevisiae with 32 samples.

Results

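The genes described here encode the aminoacyl-tRNA synthetases of budding yeast, 22 for the cytosol and 14 for the mitochondria. They were taken by systematic name from a fixed list, a rule that uses no measured value, and make up 36 of the 7036 genes of the count table. The cytosolic list holds ARC1 (YGL105W), which charges no tRNA, and both subunits of the phenylalanine enzyme, FRS1 (YLR060W) and FRS2 (YFL022C). Levels are in CPM, the counts of a gene scaled to a library of fixed size. Before scaling, each library size was multiplied by a TMM normalization factor. A gene was tested if it had 10 CPM or more, without these factors, in 4 libraries of each assay, which held for 4625 genes. All 22 cytosolic genes and 13 of the 14 mitochondrial genes passed. SLM5 (YCR024C), the mitochondrial asparagine enzyme, did not, so it appears below only with its levels.

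RNA-Seq of poly(A) mRNA and Ribo-Seq of monosome footprints left by RNase I were made from the same 16 cultures, giving 32 libraries. The cultures were of tma46Δ, eif2aΔ, stm1Δ and wt cells, with 4 per strain. All were BY4742 haploids in exponential growth and carried MATα his3Δ1 leu2Δ0 lys2Δ0 ura3Δ0, wt included. The deletion strains, each a single strain of the Yeast Gene Deletion Collection, lacked TMA46, YGR054W (the gene for eIF2A) or STM1. The medium was rich (YPD) by the methods and YPD or SD by the labels, and cycloheximide was in the buffers by the methods and in the medium by the labels. The question asked of each comparison was whether loss of one of these ribosome-associated proteins alters mRNA levels or translation. The labels put the cultures in 7 batches. The wt cultures were in batches 1, 2, 3 and 4, those of tma46Δ in 1, 2, 3 and 5, and those of eif2aΔ in 3, 4, 5 and 6. The first stm1Δ culture was in batch 6 and the other 3 in batch 7, and no batch held both stm1Δ and wt.

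Each synthetase attaches one amino acid to its tRNAs, and the ribosome then reads the charged tRNA. Mitochondria translate a few respiratory chain proteins with their own tRNAs and ribosomes, and in yeast most of the enzymes that charge those tRNAs come from separate nuclear genes. Some genes instead make both forms from one mRNA population, through alternative start codons. Uncharged tRNA activates the kinase Gcn2, which raises translation of GCN4, the transcription factor for amino acid biosynthesis genes.

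The RNA-Seq libraries held 4215500 to 6717295 gene counts, and the Ribo-Seq libraries 1457024 to 4122370. The TMM factors of RNA-Seq were 1.085, 0.993, 1.089 and 1.098 in stm1Δ and 0.967, 0.955, 1.01 and 0.978 in wt. In Ribo-Seq they were 1.048, 1.015, 1.025 and 1.041 in stm1Δ and 0.979, 1.005, 0.977 and 0.974 in wt. A larger factor gives a lower CPM. A cytosolic member had 1288 to 6823 counts in an RNA-Seq library and 379 to 6383 in a Ribo-Seq library. A mitochondrial member had only 76 to 491 and 11 to 112, so its footprint values carry more counting error. The deleted gene was at or near 0 in its own strain, with at most 1 RNA-Seq count for TMA46, 2 for YGR054W and 2 for STM1. The α-cell markers MF(ALPHA)1 and STE3 were counted in every library, and the a-cell gene STE2 stayed at 17 to 44 RNA-Seq counts. Another α-cell marker, MF(ALPHA)2, had 108 to 260 RNA-Seq counts in wt but as few as 28 in eif2aΔ and 10 in stm1Δ. Reads on the opposite strand of the members came to at most 1.07% of cytosolic and 6.07% of mitochondrial counts in any RNA-Seq library and are not in the values used.

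In wt cells the cytosolic synthetase mRNAs were abundant and the mitochondrial ones scarce, with no overlap between the lists. Levels are given as CPM per kilobase of coding length, so that genes can be compared. The median was 308 for the 22 cytosolic genes and 21.8 for the 14 mitochondrial genes in RNA-Seq, beside 59.96 for all genes tested. In Ribo-Seq the medians were 367, 8.81 and 40.3. The ratio of the cytosolic to the mitochondrial median was therefore 14.1 for mRNA and 41.7 for footprints. Without division by length the ratios were 16.9 and 56.6. Levels are relative to the TMM-adjusted total of each bulk library. Fewer cells with an mRNA and less of it per cell therefore cannot be told apart.

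ARC1, the cofactor that holds the methionine and glutamate enzymes in one complex, had the highest mRNA level per kilobase of all members, with 677, 688, 681 and 631 in the 4 wt cultures. KRS1 (YDR037W), the lysine enzyme, followed at 560, 539, 526 and 527. At the low end of the cytosolic list stood CDC60 (YPL160W), the leucine enzyme, at 188, 171, 166 and 168, and CRS1 (YNL247W), the cysteine enzyme, at 160, 142, 140 and 163. The top and the bottom of the cytosolic list lay apart in every wt culture, whereas CDC60 did not differ from GLN4 just above it beyond the spread between cultures.

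Among mitochondrial mRNAs MSK1 (YNL073W), for lysine, was highest, at 42.4, 44.4, 43.3 and 39.7 CPM per kilobase. MSW1 (YDR268W), for tryptophan, had 28.4, 31.3, 32.1 and 27.5, and did not reach the lowest MSK1 value in any culture. The lowest were AIM10 (YER087W), the proline enzyme, at 16.2, 15.4, 15.9 and 15.4, and ISM1 (YPL040C), the isoleucine enzyme, at 13.6, 13.9, 15.7 and 14.5, which overlapped. SLM5 lay among them at 15.9 ± 2.22 (SD, n = 4). Even CRS1, the lowest cytosolic mRNA, was above MSK1 in each wt culture. Over the 36 genes in order, 17 of the 35 steps between neighbours exceeded the larger SD of the pair.

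Footprints ordered the genes somewhat differently. ARC1 was again highest, with 860, 837, 901 and 887 CPM per kilobase in Ribo-Seq, and SES1 (YDR023W), the serine enzyme, reached 899, 777, 866 and 867. These ranges overlapped. At the bottom of the cytosolic list MES1 (YGR264C), the methionine enzyme, had 278, 271, 250 and 248 and CRS1 had 162, 157, 159 and 159, without overlap.

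Of the mitochondrial genes MSW1 carried the most footprints, 16.9, 24.1, 20.3 and 17.4 CPM per kilobase, and MSY1 (YPL097W), the tyrosine enzyme, had 18.5, 11.9, 17.1 and 13.8. MSR1 (YHR091C), the arginine enzyme, had the fewest, 4.55, 5.84, 3.28 and 4.30, next to ISM1 at 5.17, 5.62, 5.37 and 6.29. Each of these neighbouring pairs overlapped. MSK1, the first of them in mRNA, was the fifth in footprints at 9.66 ± 1.63 (SD, n = 4). Of the 35 steps in the footprint order, 13 exceeded the spread.

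**Figure D1:**
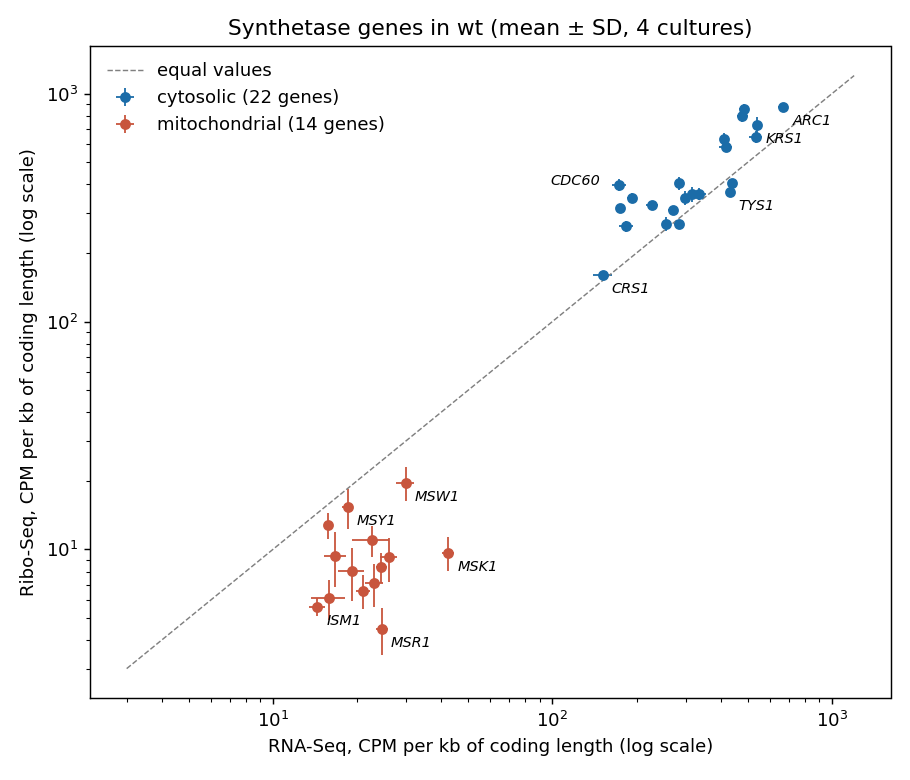
Level of each synthetase gene in wt, RNA-Seq against Ribo-Seq, both in CPM per kilobase of coding length on log axes; points are means and bars SDs over 4 cultures. The 22 cytosolic genes sit at 151 to 669 in RNA-Seq and the 14 mitochondrial genes at 14.4 to 42.4, and most mitochondrial genes fall below the line of equal values.

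The enzymes of the 2 compartments can be set side by side by amino acid. There were 15 such pairs over 14 mitochondrial enzymes, since MSF1 was paired with both FRS1 and FRS2. The cytosolic to mitochondrial mRNA ratio per kilobase ran from 7.09 ± 0.36 for CDC60 over NAM2 (leucine) to 34.2 ± 5.91 for DED81 over SLM5 (asparagine), with a median of 18.5 (SD, n = 4 wt cultures). The footprint ratio ran from 13.95 ± 2.48 for WRS1 over MSW1 (tryptophan) to 117 ± 27.7 for GUS1 over MSE1 (glutamate), with a median of 59.1. It was the larger of the pair's ratios in 15 of 15 cases.

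Relative to the mRNA ratio, the footprint ratio was largest for arginine and leucine. CDC60 over NAM2 had mRNA ratios of 7.38, 7.13, 6.57 and 7.28, and footprint ratios of 51.8, 40.9, 42.4 and 58.2. YDR341C, the cytosolic arginine enzyme, over MSR1 had mRNA ratios of 9.60, 9.12, 9.54 and 8.81, and footprint ratios of 71.8, 55.7, 99.3 and 74.0. For both amino acids every footprint ratio lay above every mRNA ratio. TYS1 over MSY1 was the exception, with 24.8 ± 3.99 in footprints and 23.3 ± 0.70 in mRNA (SD, n = 4), a difference within the spread.

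Ribosome occupancy (RO) is the Ribo-Seq level of a gene relative to its RNA-Seq level, given here as log2 minus the median gene of the same culture, so that gene length cancels. All 22 cytosolic genes were higher in RO than the median gene in wt, and 9 of 13 mitochondrial genes were lower, by limma with a false discovery rate (FDR) under 0.05. Most genes pass this test in one direction, since 37.3% of the genes tested were higher and 36.7% lower. The cytosolic median was 0.89 and the mitochondrial median −0.84, beside −0.01 for all genes tested.

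CDC60 had the highest RO of the members, with 1.69, 1.68, 1.65 and 1.70 in the 4 wt cultures. ALA1 (YOR335C), the alanine enzyme, had 1.40, 1.24, 1.32 and 1.40, below CDC60 in every culture. The lowest cytosolic genes were GRS1 (YBR121C), for glycine, at 0.45, 0.36, 0.34 and 0.35, and TYS1, for tyrosine, at 0.30, 0.11, 0.33 and 0.33. CDC60 thus combined one of the lowest cytosolic mRNA levels with the highest RO.

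On the mitochondrial side MSY1 had an RO of 0.52, −0.15, 0.32 and 0.17 and AIM10 one of 0.10, 0.38, 0.31 and −0.00, neither called apart from the median gene. MSK1 had −1.42, −1.66, −2.02 and −1.37. MSR1 had −1.75, −1.61, −2.30 and −1.92, lowest of all members, and its range overlapped that of MSK1. MSW1 (−0.10 ± 0.15) and MSF1, for phenylalanine (−0.34 ± 0.49; SD, n = 4), were the other 2 mitochondrial genes that did not pass. In the full order of 35 genes only 6 of 34 steps between neighbours exceeded the spread.

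The separation of the compartments was seen in every culture of every strain. The cytosolic median RO lay at 0.75 to 0.94 in tma46Δ, 0.81 to 1.00 in eif2aΔ, 0.70 to 0.99 in stm1Δ and 0.77 to 0.96 in wt. The mitochondrial median lay at −0.94 to −0.61 in tma46Δ, −0.93 to −0.69 in eif2aΔ, −1.04 to −0.81 in stm1Δ and −1.01 to −0.69 in wt. The 4 strains overlapped in both.

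**Figure D2:**
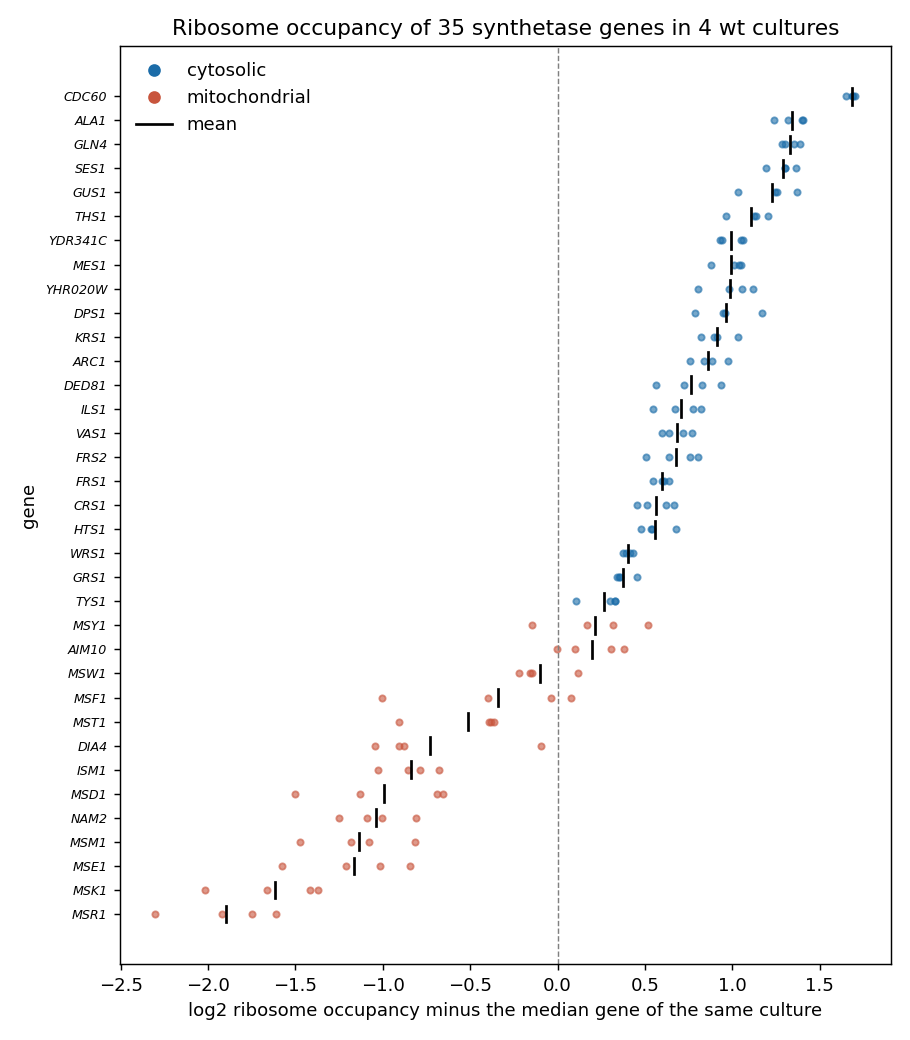
RO of the 35 tested synthetase genes in wt, as log2 minus the median gene of the same culture; points are the 4 cultures, black marks the means, and the dashed line the median gene. CDC60 is at the top with a mean of 1.68 and MSR1 at the bottom with −1.90, and the means of the 22 cytosolic genes lie above those of the 13 mitochondrial ones.

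The coding sequences of both lists also differed in codon choice. The codon adaptation index, computed against 138 ribosomal protein genes as the codon reference, had a median of 0.431 for the cytosolic genes (0.355 to 0.554) and 0.205 for the mitochondrial genes (0.166 to 0.250), beside 0.222 for 4617 protein-coding genes tested. The ranges of the lists did not overlap. An A at position −3 before the start codon, the most favoured base there in yeast, was present in 16 of 22 cytosolic genes (72.7%) and 8 of 14 mitochondrial genes (57.1%), beside 62.9% of the protein-coding genes tested. An ATG in any frame within 100 bases upstream was present in 68.2% and 78.6%, beside 47.5%. The start contexts of the members at both ends of the RO order follow, from RefSeq on the R64 build, 5′ to 3′ on the gene's strand, with the start codon in capitals. CDC60 lies at chrXVI:246978-246998 (+), ALA1 at chrXV:949101-949121 (−), MSK1 at chrXIV:488374-488394 (+) and MSR1 at chrVIII:286762-286782 (−).
CDC60: aaccagtctataATGtcttct
ALA1: actagaaccataATGacgatc
MSK1: acatgattgccgATGaatgtg
MSR1: aagtgggtcaatATGttcggg
Of these 4, CDC60, ALA1 and MSR1 have A at −3 and MSK1 has C, so high and low RO were both found with A there.

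Around the start codons the binding motif of Gcn4, TGACTCA or TGAGTCA (the same site read on either strand), was searched from 250 bases before to 50 bases after the start codon. It was found for 3 of 22 cytosolic genes (13.6%) and 0 of 14 mitochondrial genes, beside 2.71% of the protein-coding genes tested. The matches, shown because Gcn4 acts in the response to uncharged tRNA, are in YDR341C from position −201, at chrIV:1153813-1153835 (−), in YHR020W, the cytosolic proline enzyme, from position −183, at chrVIII:143805-143827 (+), and in GLN4, the glutamine enzyme, from base 20 of the coding sequence, at chrXV:649314-649336 (+). The YHR020W match lies between that gene and DED81, a member on the other strand, and falls outside the window searched for DED81. Capitals mark the motif. A match is a description of the letters and not a bound site.
YDR341C: gtgtctaaTGAGTCAgttatttc
YHR020W: gcgatgctTGAGTCActgaatgt
GLN4: agaagaatTGACTCAgctgtttt

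Subunits of one enzyme were present at similar levels. FRS2 over FRS1, the ratio of the phenylalanine subunits per kilobase, was 0.945 ± 0.037 in mRNA and 0.998 ± 0.051 in footprints in wt (SD, n = 4). In the complex of MES1, GUS1 and ARC1 the members were unequal, with GUS1 over ARC1 at 0.714 ± 0.012 in mRNA and 0.918 ± 0.026 in footprints, and MES1 over ARC1 at 0.274 ± 0.007 and 0.301 ± 0.026. MES1 was thus the scarcest of the complex in both assays.

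In tma46Δ cells no synthetase gene passed the test, and the cytosolic levels lay close to wt. TMA46 is a ribosome-associated protein, and its loss gave no call among the 35 tested members in RNA-Seq, Ribo-Seq or RO. The test was edgeR's quasi-likelihood F-test on a model of strain and batch. Among all genes tested 0.0216%, 0.0216% and 0% were called. DESeq2 also called 0 members in each, beside 0.0216%, 0.0432% and 0% of all genes. At an unadjusted p under 0.05 edgeR gave 0, 0 and 1 members, beside 1.62%, 3.68% and 1.3% of all genes. The cytosolic median log2 fold change was 0.04 for mRNA, 0.04 for footprints and 0.00 for RO, and the mitochondrial median was −0.05, −0.05 and 0.03. The fitted value was above 0 for 18 of 22 cytosolic mRNAs and for 22 of 22 genes in footprints, beside 2078 and 2313 of all 4625 genes, and below 0 for 12 of 13 mitochondrial genes in RNA-Seq. The cytosolic values reached no further than 0.11, with a median SE of 0.08 for mRNA and 0.07 for footprints. Without the batch term 19 and 18 cytosolic genes were above 0. Within batches 1, 2 and 3, shared with wt, the cytosolic medians were −0.03, 0.03 and 0.06 for mRNA and −0.01, 0.02 and 0.06 for footprints. The p-values measure the spread between cultures that is left after strain and batch, pooled over all strains. Each deletion was a single strain.

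The gene at p under 0.05 was MSE1, the mitochondrial glutamate enzyme, whose RO was −0.72, −0.59, −0.60 and −0.87 in tma46Δ and −1.21, −0.85, −1.58 and −1.02 in wt. The groups overlapped through 1 tma46Δ and 1 wt culture, and the log2 difference was 0.52 ± 0.22 (SE; FDR 1.00). Within batches 1, 2 and 3 the tma46Δ culture was above its wt partner in RO by 0.50, 0.25 and 0.98 and in footprints by 0.28, 0.18 and 0.80. The MSE1 mRNA differed by −0.21, −0.09 and −0.20, so each measure had 1 sign in all 3 pairs. That was not particular to MSE1, since MSR1 and MSM1, for methionine, were also above wt in footprints and RO in all 3 pairs. MSE1 also had the largest mitochondrial fold change in footprints, 12.5, 16.7, 16.5 and 12.6 CPM in tma46Δ and 10.1, 14.7, 9.19 and 11.8 CPM in wt (0.36 ± 0.21), and in mRNA, 30.0, 35.8, 35.4 and 34.1 CPM in tma46Δ and 34.9, 38.0, 40.7 and 34.9 CPM in wt (−0.16 ± 0.10). The largest cytosolic values were smaller, at 0.09 ± 0.08 for TYS1 in RNA-Seq, 0.11 ± 0.07 for HTS1, the histidine enzyme, in Ribo-Seq (0.07 without the batch term), and 0.07 ± 0.09 for GLN4 in RO.

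TYS1 mRNA had 497, 581, 568 and 523 CPM in tma46Δ and 509, 531, 513 and 490 CPM in wt. HTS1 footprints were at 481, 463, 452 and 452 CPM in tma46Δ and 415, 443, 424 and 482 CPM in wt. The RO of GLN4 was 1.37, 1.32, 1.42 and 1.49 in tma46Δ and 1.39, 1.30, 1.29 and 1.36 in wt. All 3 overlapped.

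Only 3 mRNAs had tma46Δ and wt values that did not overlap. GRS1 had 896, 944, 911 and 896 CPM in tma46Δ against 885, 895, 867 and 866 CPM in wt, and YHR020W had 606, 630, 627 and 608 against 590, 598, 600 and 558. NAM2, the mitochondrial leucine enzyme, had 60.8, 55.1, 59.5 and 56.4 CPM in tma46Δ against 68.3, 64.4, 67.9 and 62.0 CPM in wt. Of all genes tested 0.973% lay wholly above and 0.951% wholly below. In Ribo-Seq 0 members lay wholly on one side, beside 1.23% of all genes above and 1.62% below. None of the 3 passed the test, and the batch-adjusted log2 fold changes were 0.04 ± 0.07, 0.08 ± 0.08 and −0.15 ± 0.09 (SE).

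In eif2aΔ cells the cytosolic genes had values close to wt as well. No member was called by edgeR or by DESeq2 in RNA-Seq, Ribo-Seq or RO, beside 0.454%, 1.84% (0.778% higher and 1.06% lower) and 0.0432% of all genes by edgeR and 1.12%, 2.79% and 0.0432% of those with an adjusted p by DESeq2, which gave the mitochondrial members none for footprints. At an unadjusted p under 0.05 there were 2, 5 and 2 members, beside 13.7%, 14.7% and 3.2% of all genes. The cytosolic medians were −0.02, −0.03 and −0.01 on the log2 scale, and the mitochondrial medians −0.01, 0.12 and 0.21. Without the batch term the cytosolic medians were 0.01, 0.01 and 0.02, and the mitochondrial ones −0.02, −0.06 and 0.11. eIF2A, known in mammals as a factor that can bring initiator tRNA to the ribosome, has been studied for starts at non-AUG codons. Within the batches shared with wt, 3 and 4, the cytosolic medians were 0.10 and −0.01 for mRNA and 0.01 and −0.03 for footprints.

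The largest mRNA differences were those of MST1, the mitochondrial threonine enzyme, and, among cytosolic genes, ARC1. MST1 had 23.8, 28.1, 25.3 and 27.1 CPM in eif2aΔ and 24.7, 32.8, 36.1 and 31.9 CPM in wt, with a log2 fold change of −0.40 ± 0.13 (FDR 0.193). The wt culture at 24.7 lay within the eif2aΔ range. ARC1 had 723, 676, 647 and 729 CPM in eif2aΔ and 766, 779, 771 and 714 CPM in wt (−0.15 ± 0.09; FDR 0.503).

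In footprints MSR1 had 9.86, 11.3, 11.996 and 7.10 CPM in eif2aΔ and 8.79, 11.3, 6.34 and 8.31 CPM in wt. These overlapped, and the fitted log2 fold change was 0.66 ± 0.24 (FDR 0.198), but 0.17 without the batch term. Its RO difference was 0.67 ± 0.26 (FDR 1.00), from −1.64, −1.41, −1.70 and −2.10 in eif2aΔ and −1.75, −1.61, −2.30 and −1.92 in wt, and was 0.15 without the batch term. With the replicate block in place of batch they were 0.20 and 0.18. CRS1 had the largest cytosolic differences, with 334, 326, 321 and 365 CPM of footprints in eif2aΔ and 374, 363, 366 and 367 CPM in wt (−0.17 ± 0.08; FDR 0.329), and an RO of 0.34, 0.43, 0.38 and 0.51 in eif2aΔ and 0.51, 0.62, 0.66 and 0.45 in wt (−0.17 ± 0.11). Only the fourth eif2aΔ culture reached the wt values of its footprints.

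YHR020W was the one member without overlap, at 961, 981, 921 and 1002 CPM of footprints in eif2aΔ against 871, 752, 850 and 865 CPM in wt, where 4.26% of all genes lay wholly above and 5.45% wholly below. Its log2 fold change was 0.17 ± 0.07 (FDR 0.299) and did not pass. In RNA-Seq 0 members lay wholly on one side, beside 3.24% of all genes above and 3.52% below.

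**Figure D3:**
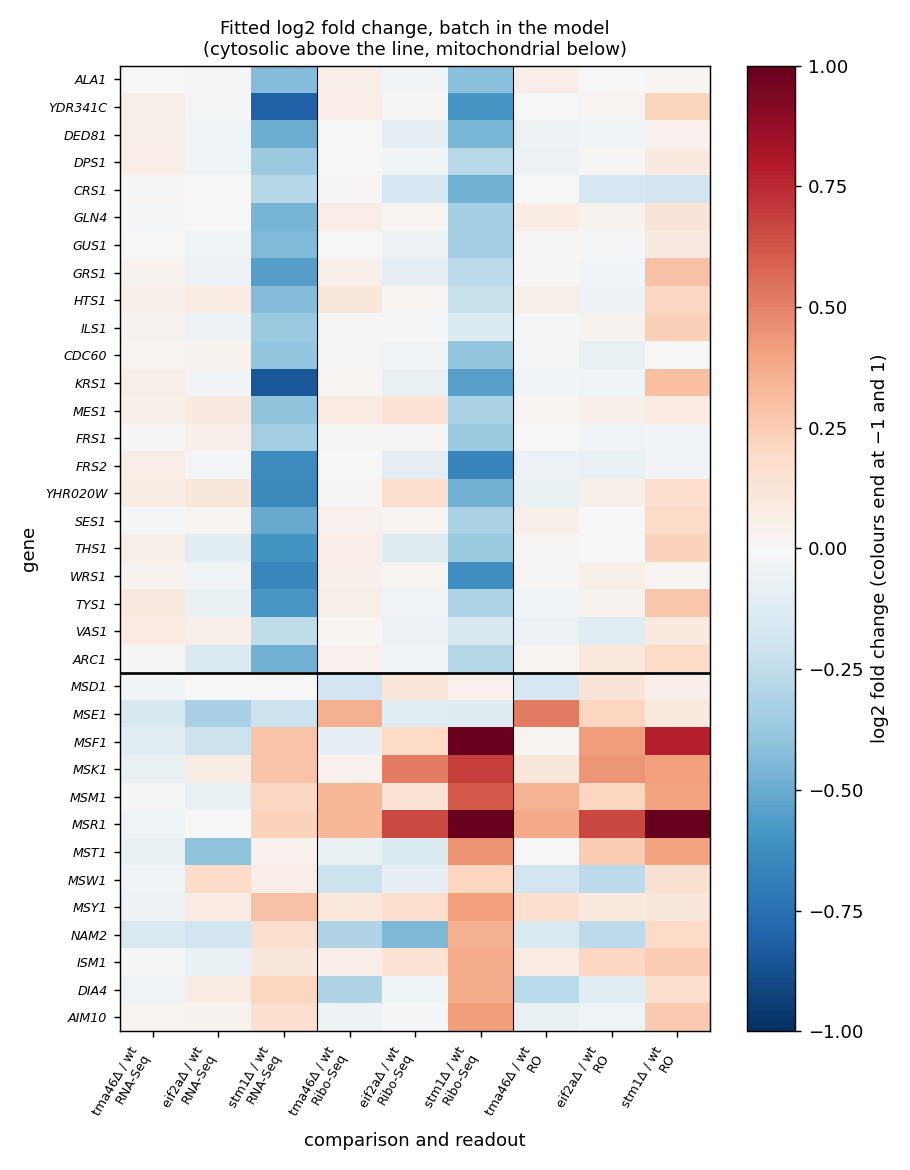
Fitted log2 fold change of each tested member (rows) in the 9 comparisons with wt (columns, grouped by readout), with batch in the model; colours end at −1 and 1. The stm1Δ columns of RNA-Seq and Ribo-Seq are blue over all 22 cytosolic genes, and the tma46Δ and eif2aΔ columns are pale there.

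In stm1Δ cells every cytosolic synthetase gene had a fitted mRNA and footprint level below wt, while most mitochondrial genes had one above, but no single gene passed edgeR's test. STM1 encodes a protein that binds inactive ribosomes. The cytosolic median log2 fold change was −0.47 in RNA-Seq, with all 22 genes below 0 (−0.84 for KRS1 to −0.26 for VAS1, the valine enzyme), and −0.36 in Ribo-Seq, again with all 22 below 0 (−0.66 for FRS2 to −0.14 for ILS1, the isoleucine enzyme). The mitochondrial medians were 0.16, with 11 of 13 above 0, and 0.41, with 12 of 13 above 0. Without the batch term these became 0.04, with 9 of 13 above 0, and 0.15, with 8 of 13 above 0. The median over all genes tested was 0.01 in both assays.

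By edgeR 0 members were called in RNA-Seq, Ribo-Seq or RO, beside 0.0649%, 0.411% and 0% of all genes. DESeq2 called 7, 2 and 0, all of them cytosolic and lower, beside 7.85%, 2.48% and 0% of all genes called lower. Its percentages are of the 2294, 1128 and 4625 genes that it gave an adjusted p, which in RNA-Seq and Ribo-Seq left out the mitochondrial members. At an unadjusted p under 0.05 edgeR gave 17, 16 and 1 members, beside 21.8%, 15.6% and 5.41% of all genes. All 17 in RNA-Seq were cytosolic and lower, and the 16 in Ribo-Seq were 13 cytosolic and 3 mitochondrial genes. The fitted contrast rests on the first stm1Δ culture, the only one in a batch with another strain, and reaches wt through the fourth eif2aΔ culture, so that the strain and the batch of the other 3 cultures cannot be told apart.

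KRS1, for lysine, had the largest mRNA difference of the members. It had 654, 757, 676 and 604 CPM in stm1Δ against 994, 957, 935 and 936 CPM in wt, and the other strains lay with wt, at 979 to 1021 in tma46Δ and 848 to 1150 in eif2aΔ. Its log2 fold change was −0.84 ± 0.20 (FDR 0.0727), and −0.51 (FDR 0.00736) without the batch term. Its footprints were at 943, 1026, 910 and 835 CPM in stm1Δ against 1446, 1215, 1246 and 1260 CPM in wt (−0.54 ± 0.17; FDR 0.165). All 4 stm1Δ cultures were below all 4 of wt in both assays.

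YDR341C, for arginine, had 274, 349, 301 and 273 CPM of mRNA in stm1Δ against 402, 433, 431 and 394 CPM in wt (−0.81 ± 0.20; FDR 0.0757), and 429, 392, 439 and 396 CPM of footprints against 596, 593, 594 and 581 CPM in wt (−0.59 ± 0.15; FDR 0.102). The second stm1Δ culture was the highest of its group in mRNA. WRS1 (YOL097C), the cytosolic tryptophan enzyme, had 252, 281, 277 and 271 CPM of mRNA in stm1Δ against 388, 364, 372 and 349 CPM in wt (−0.65 ± 0.16; FDR 0.0727). Its footprints were 247, 291, 290 and 257 CPM in stm1Δ against 367, 340, 351 and 336 CPM in wt (−0.62 ± 0.16; FDR 0.102). Neither gene overlapped with wt. Without the batch term the mRNA difference of YDR341C was −0.47 (FDR 0.0131) and the footprint difference of WRS1 −0.36 (FDR 0.00915). KRS1, YDR341C, WRS1 and FRS2 all passed in both assays in that fit.

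FRS2, the α subunit of the phenylalanine enzyme, had the largest footprint difference among cytosolic genes, at 397, 362, 359 and 341 CPM in stm1Δ against 603, 501, 542 and 547 CPM in wt (−0.66 ± 0.14; FDR 0.0589). Its mRNA was at 326, 409, 312 and 318 CPM in stm1Δ against 486, 490, 485 and 453 CPM in wt (−0.64 ± 0.21; FDR 0.112). Its partner FRS1 had smaller log2 fold changes, −0.37 ± 0.15 in Ribo-Seq and −0.35 ± 0.19 in RNA-Seq. The FRS2 to FRS1 footprint ratio per kilobase was 0.892, 0.862, 0.772 and 0.729 in stm1Δ against 1.00, 0.929, 1.01 and 1.05 in wt, without overlap. In tma46Δ it was 0.983 ± 0.060 and in eif2aΔ 0.962 ± 0.056 (SD, n = 4). The mRNA ratio was 0.832 ± 0.068 in stm1Δ and 0.945 ± 0.037 in wt, and overlapped. The GUS1 to ARC1 ratio in stm1Δ, 0.702 ± 0.024 in mRNA and 0.871 ± 0.050 in footprints, overlapped with that of wt.

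**Figure D4:**
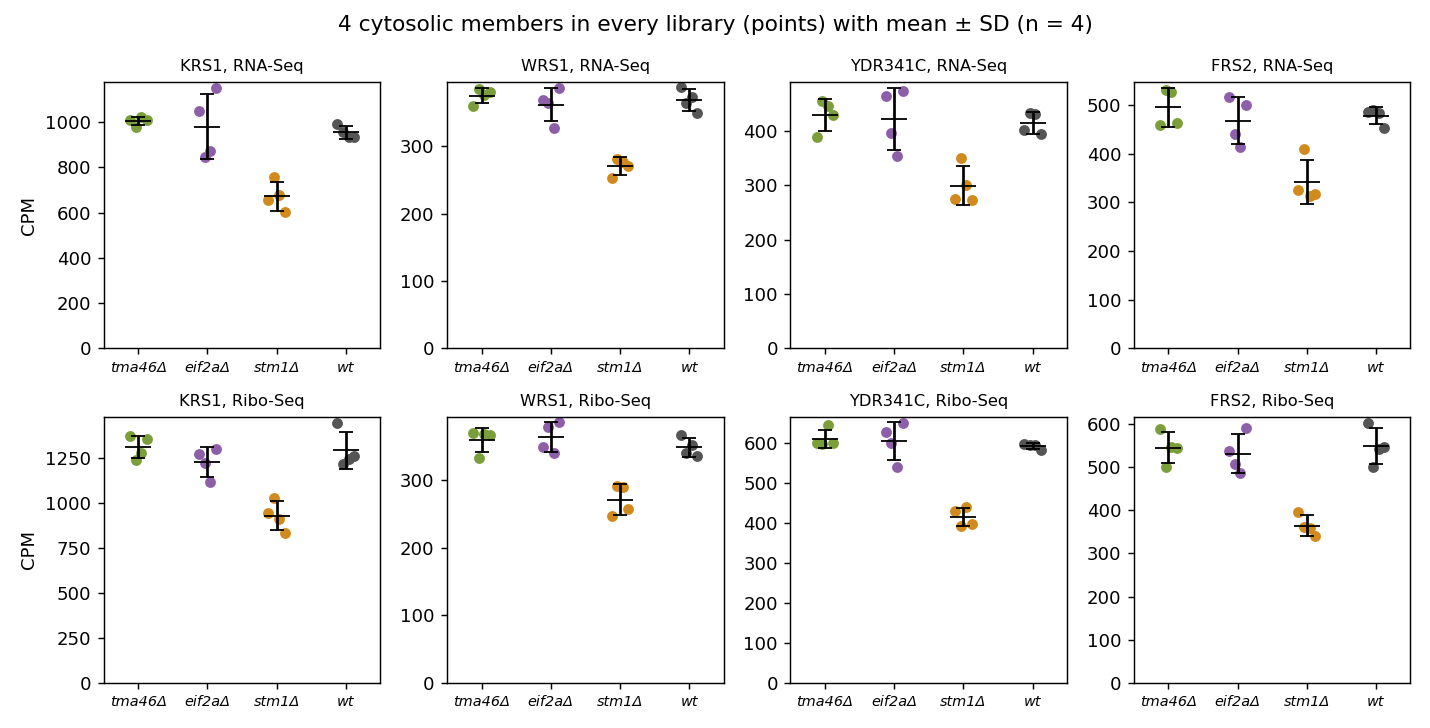
KRS1, WRS1, YDR341C and FRS2 in CPM in every RNA-Seq (top) and Ribo-Seq (bottom) library, by strain; points are cultures and black marks the mean ± SD (n = 4), on axes that start at 0. In each panel the 4 stm1Δ points lie below the 4 wt points, for KRS1 mRNA at 604 to 757 against 935 to 994 CPM. All 4 genes had a larger fitted mRNA difference than the cytosolic median of −0.47.

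Without any model, 16 of the 22 cytosolic genes had all 4 stm1Δ mRNA values below all 4 of wt, beside 8.89% of all genes tested. In Ribo-Seq 13 had so, beside 7.31%. These counts use TMM-scaled CPM and were not made without the TMM factors. The mRNAs that overlapped were those of ALA1, CRS1, DED81, DPS1 (the aspartate enzyme), ILS1 and MES1. In Ribo-Seq ALA1, ARC1, DED81, DPS1, GLN4, ILS1, MES1, THS1 (the threonine enzyme) and VAS1 overlapped. Among mitochondrial genes MSM1, for methionine, was the one that lay wholly above, with 44.9, 42.1, 44.3 and 40.5 CPM of mRNA in stm1Δ against 34.2, 36.8, 39.0 and 35.3 CPM in wt, beside 6.98% of all genes.

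Each stm1Δ library showed the lower cytosolic level, though not equally after TMM scaling. The median log2 difference of the cytosolic genes from the wt mean was −0.38, −0.15, −0.30 and −0.34 in the 4 RNA-Seq libraries of stm1Δ and −0.23, −0.25, −0.16 and −0.24 in Ribo-Seq. For the mitochondrial genes the medians were 0.21, −0.06, 0.05 and 0.04 for mRNA and 0.32, −0.15, 0.05 and 0.05 for footprints, and the first stm1Δ culture was the only one above every wt library. The third eif2aΔ culture, at −0.155 in RNA-Seq, lay slightly below the second stm1Δ culture, at −0.151. The next lowest RNA-Seq library outside stm1Δ was at −0.07. As a share of all gene counts the cytosolic genes took 1.17 to 1.25% in stm1Δ, 1.38 to 1.43% in tma46Δ, 1.29 to 1.48% in eif2aΔ and 1.32 to 1.42% in wt RNA-Seq. In Ribo-Seq they took 1.65 to 1.72% in stm1Δ, against 1.84 to 1.95% in wt, without overlap.

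Within batch 6, the one batch that stm1Δ shared with another strain, 1 stm1Δ culture could be set beside 1 eif2aΔ culture. All 22 cytosolic genes were lower in stm1Δ there in mRNA, with a median log2 difference of −0.47 (−0.81 to −0.28), and in footprints, with a median of −0.34 (−0.64 to −0.10). Of the 13 mitochondrial genes 1 was lower in mRNA (median 0.21) and 2 in footprints (median 0.39), and all genes had a median of 0.01 in both assays. The eif2aΔ culture had the highest cytosolic median of the 16 libraries of each assay, 0.10 above the wt mean for mRNA and 0.11 for footprints, while the stm1Δ culture lay at −0.38 and −0.23, so the difference within the batch is larger than that of the stm1Δ culture from wt. This is 1 culture of each strain and carries no test. Without a batch term the cytosolic medians against wt were −0.29 for mRNA and −0.21 for footprints, and 17 and 7 cytosolic genes were lower by edgeR at FDR under 0.05, beside 6.34% and 3.07% of all genes. With 1 stm1Δ culture also left out these counts were 2 to 18, lowest without the fourth culture, and 5 to 7.

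**Figure D5:**
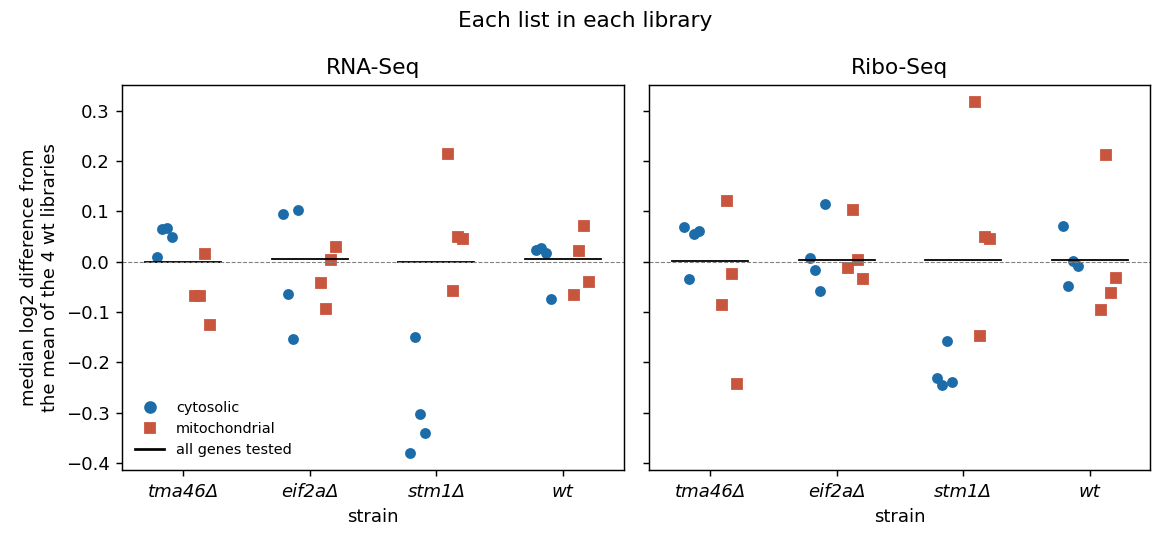
Median log2 difference from the mean of the 4 wt libraries, for the cytosolic (circles) and mitochondrial (squares) genes, in each RNA-Seq (left) and Ribo-Seq (right) library by strain; black lines are the mean over libraries of the median of all genes tested. The cytosolic medians of stm1Δ lie at −0.38 to −0.15 on the left and at −0.25 to −0.16 on the right.

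The footprint values of the mitochondrial genes in stm1Δ rested on few counts. MSR1 had the largest fitted footprint difference, 1.61 ± 0.43 on the log2 scale (FDR 0.109), but its levels were 13.7, 9.50, 12.04 and 8.81 CPM in stm1Δ and 8.79, 11.3, 6.34 and 8.31 CPM in wt, on 13 to 45 counts in stm1Δ and 20 to 46 in wt. The groups overlapped, and without a batch term the difference was 0.36 (FDR 0.406). Its RO difference of 1.38 ± 0.49 (FDR 0.851) came from −1.49, −1.78, −1.50 and −2.06 in stm1Δ and −1.75, −1.61, −2.30 and −1.92 in wt, and was 0.24 without the batch term. MSY1 had the largest mitochondrial mRNA value, 0.30 ± 0.27, at 28.0, 30.3, 31.3 and 34.5 CPM in stm1Δ and 27.2, 27.7, 28.7 and 25.8 CPM in wt, and 0.18 without the batch term. For MSK1 the fitted footprint difference was 0.69 ± 0.32, but −0.02 without a batch term, with 18.3, 16.8, 15.8 and 14.2 CPM in stm1Δ and 18.9, 16.9, 12.7 and 18.4 CPM in wt.

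SLM5, below the filter, had 25.3, 21.4, 19.6 and 17.2 CPM of mRNA in stm1Δ and 19.5, 24.6, 27.3 and 22.6 CPM in wt. The mitochondrial genes as a whole took 0.0515 to 0.0666% of RNA-Seq counts in stm1Δ and 0.0505 to 0.0572% in wt, which overlapped.

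RO in stm1Δ showed no difference past the threshold, with a median SE of 0.22 for cytosolic and 0.45 for mitochondrial genes. The cytosolic median was 0.11 and the mitochondrial median 0.25 on the log2 scale, beside 0.07 for all genes tested. Without the batch term they were 0.05 and −0.02. KRS1 had the largest cytosolic value, 0.30 ± 0.27 (FDR 0.900; 0.03 without the batch term), with an RO of 0.97, 0.90, 0.90 and 0.94 in stm1Δ and 1.03, 0.82, 0.89 and 0.91 in wt. ARC1 was the one member whose values did not overlap, at 1.00, 1.01, 1.00 and 1.06 in stm1Δ against 0.84, 0.76, 0.88 and 0.98 in wt, beside 4.35% of all genes wholly above. Its fitted difference was 0.19 ± 0.23 (FDR 0.917).

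Among the cytosolic genes known to supply mitochondria as well, ALA1, GRS1, HTS1 and VAS1 were examined here. ALA1 and GRS1 start the mitochondrial form at a codon other than AUG, and HTS1 and VAS1 start it at the first ATG and the cytosolic form at a second one in frame. A search for these codons on RefSeq R64 found for ALA1 ACG codons 25 and 24 codons upstream of the ATG, downstream of an in-frame stop 28 codons upstream. For GRS1 it found TTG codons 23 and 54 codons upstream, and a stop 57 codons upstream. The codon nearer the ATG is shown for GRS1 and the one further from it for ALA1. In HTS1 the second in-frame ATG is codon 21 and in VAS1 codon 47. The windows below, with the codon in capitals, lie at chrXV:949170-949196 (−) for ALA1, chrII:483422-483448 (−) for GRS1, chrXVI:638945-638971 (−) for HTS1 and chrVII:672312-672338 (+) for VAS1. They are shown because reads on either form enter one gene count.
ALA1: atttaagacaagACGacgtcaactacc
GRS1: tttcaagaaaaaTTGtcgttcttcaat
HTS1: tcgataatcaggATGtcatccgctacc
VAS1: aggttctttaaaATGagcgatcttgat

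Loss of eIF2A gave no call at these genes. ALA1 footprints were at 1024, 986, 954 and 1165 CPM in eif2aΔ and 1061, 939, 1012 and 989 CPM in wt, with a log2 fold change of −0.03 ± 0.07 (FDR 0.910). GRS1 footprints were at 771, 805, 666 and 808 CPM in eif2aΔ and 860, 826, 788 and 787 CPM in wt (−0.09 ± 0.09; FDR 0.691). The mean of ALA1 was slightly higher in eif2aΔ, and its difference was 0.05 without the batch term. Both overlapped, as did the strains in RO, where the differences were −0.01 ± 0.11 for ALA1 and −0.03 ± 0.12 for GRS1, and 0.01 and −0.07 without the batch term. These gene totals include both forms, so a shift between start codons was not measured.

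In stm1Δ the footprints of these genes overlapped with wt for ALA1 and VAS1 and lay below it for GRS1 and HTS1. ALA1 had 888, 894, 972 and 892 CPM of footprints in stm1Δ and 1061, 939, 1012 and 989 CPM in wt (−0.42 ± 0.14; FDR 0.183). GRS1 had 715, 657, 739 and 734 CPM in stm1Δ against 860, 826, 788 and 787 CPM in wt (−0.26 ± 0.17; FDR 0.455). HTS1 had 381, 365, 395 and 369 CPM in stm1Δ against 415, 443, 424 and 482 CPM in wt (−0.23 ± 0.15), and VAS1 had 951, 883, 1022 and 1032 CPM in stm1Δ and 1080, 1009, 975 and 1030 CPM in wt (−0.16 ± 0.15). None of the 4 passed the test. Without the batch term the differences of ALA1 and VAS1 were −0.13 and −0.07.

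Genes around the synthetases were counted in the same fits. The lists were 7 accessory genes of tRNA charging, of which 6 passed the filter, 5 genes of the response to uncharged tRNA, all of which passed, and 6 mitochondrial translation factors, all of which passed. The response genes were the kinase GCN2, GCN1 and GCN20, which help to activate it, YIH1, an inhibitor of that step, and GCN4. In the 9 comparisons edgeR and DESeq2 each called 0 of these 17 tested genes, though DESeq2 gave an adjusted p to only 5 of them in eif2aΔ Ribo-Seq, 6 in stm1Δ RNA-Seq and 3 in stm1Δ Ribo-Seq. At an unadjusted p under 0.05 edgeR gave 0, 1 and 1 of them in RNA-Seq, Ribo-Seq and RO for tma46Δ, 3, 4 and 0 for eif2aΔ and 1, 1 and 1 for stm1Δ. As shares of the 17 genes these were 0%, 5.88% and 5.88% for tma46Δ, beside 1.62%, 3.68% and 1.3% of all genes, 17.6%, 23.5% and 0% for eif2aΔ, beside 13.7%, 14.7% and 3.2%, and 5.88% each for stm1Δ, beside 21.8%, 15.6% and 5.41%. A single gene is 5.88% of the list.

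The gene at p under 0.05 in tma46Δ was GCN4 (YEL009C) in both cases, named with its values seen. Its footprints were at 31.2, 33.3, 53.5 and 43.1 CPM in tma46Δ and 22.7, 20.8, 37.4 and 33.3 CPM in wt, on 95 to 135 counts in tma46Δ and 67 to 118 in wt. These overlapped, with a log2 fold change of 0.51 ± 0.14 and an RO difference of 0.50 ± 0.16 (FDR 1.00 for both by edgeR). Within batches 1, 2 and 3 the tma46Δ culture was above its wt partner by 0.45, 0.66 and 0.51 in footprints and by 0.35, 0.63 and 0.42 in RO. The footprint difference passed when only tma46Δ and wt were fitted (0.56; FDR 0.00713) and after ComBat-seq (0.53; FDR 0.00748), but in RO neither did. Its mRNA was at 1882, 1762, 1643 and 1727 CPM in tma46Δ and 1759, 1741, 1564 and 1916 CPM in wt (0.01 ± 0.09). In stm1Δ GCN4 footprints had a fitted difference of −0.47 ± 0.32 (FDR 0.495), at 26.0, 27.3, 36.4 and 45.4 CPM. The sign comes from the batch adjustment, since without the batch term the difference was 0.20 (FDR 0.625). In stm1Δ the median of the response genes was −0.02 for mRNA and −0.20 for footprints on the log2 scale, that of the accessory genes −0.02 and 0.06, and that of the mitochondrial translation factors −0.04 and 0.16. These medians are from the fit with the batch term, which rests on the first stm1Δ culture.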

How the data were processed

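The authors deposited read counts per gene, neither normalized nor batch-corrected, made with cutadapt 2.10, duplicate removal for Ribo-Seq, rRNA removal with Bowtie2 (listed as 1.2.3 in the submitters' notes) and STAR 2.7.9a on Ensembl R64-1-1. In 32 of 32 libraries they match the sense-strand counts of each library's own file, and 0 columns of other samples were left aside.

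In R 4.3.3, all genes at 10 CPM in at least 4 libraries of each assay were fitted with edgeR 4.0.16 (TMM, glmQLFit and glmQLFTest, batch and strain as terms, all 16 libraries of an assay, Benjamini-Hochberg over 4625 genes, FDR 0.05). RO differences were the strain by assay interaction over 32 libraries. The SE printed with an edgeR log2 fold change is the absolute fold change divided by the square root of the F statistic. RO in wt was tested with limma 3.58.1 on log2 CPM with a prior count of 2. The methods correct batches with ComBat-seq before the test, and here that was an alternative (sva 3.50.0), as was DESeq2 1.42.0. The others were to drop the batch term, block on replicate number or culture, use RLE factors, skip the filter, fit 1 strain with wt only, and leave out cultures in turn. A level of 10 CPM is 42.2 counts in the shallowest RNA-Seq library and 14.6 in the shallowest Ribo-Seq library, and intervals from cultures include counting error. The fits were tested on simulated data, but no minimum recovery of changed genes was required there for the stm1Δ contrast.

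Named members were those with the largest fold change per compartment and comparison, the 2 highest and 2 lowest per compartment by wt level and RO, fixed subunit partners, and ALA1, GRS1, HTS1 and VAS1. Others were named where their groups did not overlap, with their values seen. In stm1Δ, where 16 cytosolic mRNAs did not overlap with wt, only some of these were named, among them those with the largest differences. The rule for the members uses no measured value, but the members and lists were chosen with earlier results of these data known. RefSeq R64 names matched 5956 of 7036 identifiers. Replicate libraries differed by more than sampling noise (chi-square per degree of freedom 2.46 to 26.4), so none was merged. The tma46Δ and wt cultures 1 to 3 share batches, and their deviations correlated (r 0.53 to 0.66 in RNA-Seq, 0.32 to 0.48 in Ribo-Seq). Figures were drawn with matplotlib 3.10.9.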

Additional observations from a re-analysis of the deposited data

Results flagged for a closer look

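In 3 of 56 groups of 4 cultures one culture stood far from the other 3, judged by its gap to the nearest culture as a share of the whole range, which chance gives in about 1 group in 20. The second stm1Δ culture had the lowest median RO of the cytosolic genes, 0.70, where the others reached up to 0.99 (gap share 0.876). The second wt culture had the highest mitochondrial share of Ribo-Seq counts, 0.0242% (gap share 0.838). The first eif2aΔ culture had the highest GUS1 to ARC1 mRNA ratio, 0.805, where the others lay at 0.728 to 0.738 (gap share 0.873).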

How the results depend on the processing

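Calls among members moved with the setting in the stm1Δ and, under ComBat-seq, the eif2aΔ comparisons, and the cause was not tested. In stm1Δ RNA-Seq edgeR called 0 members with the batch term, 17 without it, 13 with the replicate block in place of batch, 30 after ComBat-seq (7 higher, 23 lower) and 7 by DESeq2, all lower apart from those 7 higher after ComBat-seq. In stm1Δ Ribo-Seq the 0 became 7 without the batch term, 7 with the replicate block, 31 after ComBat-seq (9 higher, 22 lower) and 2 by DESeq2. ComBat-seq also gave 14 in stm1Δ RO, 3 in eif2aΔ RNA-Seq and 5 in eif2aΔ Ribo-Seq, beside 47.4%, 20.7% and 17.8% of all genes. For stm1Δ mRNA the share of all genes called was 68.1% after ComBat-seq, 5.43% with the replicate block and 9.66% without batch. For stm1Δ footprints these shares were 55.4%, 3.39% and 4.76%. Leaving out 1 culture gave 0 to 15 in stm1Δ RNA-Seq, with 15 without stm1Δ replicate 2, beside 12.5% of all genes. In Ribo-Seq it gave 0 to 7, with 7 without stm1Δ replicate 2, beside 4.09% of all genes. It gave 1 there without stm1Δ replicate 4 or without eif2aΔ replicate 1, beside 0.649% and 2.49%. The stm1Δ contrast could not be fitted without stm1Δ replicate 1 or eif2aΔ replicate 4, nor from stm1Δ and wt alone. Therefore each stm1Δ replicate was also left out with no batch term, a choice made after seeing the data, which gave 9, 18, 3 and 2 calls in RNA-Seq without replicates 1, 2, 3 and 4, 7, 7, 7 and 5 in Ribo-Seq, and 0 in RO. Of all genes 6.96%, 18.3%, 0.973% and 0.432% were called in these RNA-Seq fits, 7.52%, 3.42%, 2.34% and 2.1% in Ribo-Seq, and 0.0649% to 0.0865% in RO. The direction of the cytosolic medians held in these fits, at −0.29 in RNA-Seq and −0.21 in Ribo-Seq without batch and −0.47 and −0.37 with RLE factors.

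The replicate block changed no other count of member calls. The numbers pair tma46Δ and wt only for replicates 1 to 3, and the deviations of replicate 4 correlated at 0.07. Of 79 named values under the alternatives, 1422 results kept their direction and side of the threshold, 130 passed it only in the alternative and 24 reversed. Without a batch term and with the replicate block, MSK1 in stm1Δ Ribo-Seq was −0.0154 and −0.0268, GCN4 in stm1Δ Ribo-Seq 0.202 and 0.228, ALA1 in eif2aΔ Ribo-Seq 0.0456 and 0.0443, and ALA1 in eif2aΔ RO 0.0135 and 0.0127. ALA1 in eif2aΔ RO was 0.00143 after ComBat-seq. From eif2aΔ and wt alone ALA1 Ribo-Seq was 0.0100, GRS1 Ribo-Seq 0.00389 and GRS1 RO 0.0631. With 1 culture left out GCN4 in tma46Δ RNA-Seq ranged from −0.0248 to 0.0463, ALA1 in eif2aΔ from −0.0575 to 0.00527 in Ribo-Seq and from −0.0269 to 0.0173 in RO, and GRS1 in eif2aΔ RO from −0.156 to 0.0505. No value that reversed had passed the test. Members of wt apart from the median gene in RO numbered 31, and 31 to 33 under the alternatives.

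Over all genes, stm1Δ RNA-Seq had 3 calls, against 447 without batch, 251 with the replicate block, 3151 after ComBat-seq, 57 without the filter, 218 by DESeq2 and 1 to 577 with 1 culture left out. stm1Δ Ribo-Seq had 19, against 220, 157 and 2561 in the first 3 of these, 37 by DESeq2 and 1 to 189. eif2aΔ RNA-Seq had 21, against 959 after ComBat-seq, 53 without the filter, 52 by DESeq2, 205 from eif2aΔ and wt alone and 4 to 172. eif2aΔ Ribo-Seq had 85, against 42 with the replicate block, 821 after ComBat-seq, 242 from both strains alone and 7 to 250. tma46Δ had 1 in each assay, against 7 and 14 after ComBat-seq, 7 and 76 from both strains alone, and 2 in Ribo-Seq by DESeq2, without tma46Δ replicate 4 or without eif2aΔ replicate 3. In RO the counts were 0, 2 and 0 for tma46Δ, eif2aΔ and stm1Δ, against 1, 67 and 2191 after ComBat-seq, 1 and 1 from both strains alone for tma46Δ and eif2aΔ, 3 for stm1Δ without batch or with the replicate block, 4 for eif2aΔ with the culture as a block, and 0 to 1, 1 to 5 and 0 to 1 with 1 culture left out. The highest leave-one-out counts of RO came without stm1Δ replicate 2. Depth limits the mitochondrial footprints, which had 11 to 112 counts a library.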
